A study of Mus musculus with 9 samples.

Results

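Among 9 arrays of mouse splenic B cell RNA, 3 gave a low and 6 a high signal for Myc, the gene of a growth-promoting transcription factor, and the transcript levels on the 2 sides of this divide are described here. The arrays were divided by the intensity of the Myc probe with the highest mean, below 200 (3 of the 9) against above 400 (6 of the 9), whatever label they carried. No array lay between these limits: the highest low-Myc array had an intensity of 70.0 and the lowest high-Myc array 583. Because the readout itself chose the groups, every difference between them is given as a description, with no p-value, and is no test of the treatment.

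The cells were primary B lymphocytes from the spleens of C57BL/6 mice aged 8 weeks, with no other genotype named. They were labelled as untreated or as having had their antigen receptor crosslinked with goat F(ab')2 fragments against mouse IgM (2.5 µg/ml) for 1 h or for 2 h, with 3 arrays for each label. The series text gives 3 h for this step. IL-4 (5 ng/ml) and CD40L (200 ng/ml) are named for stimulation in the shared protocol text of all samples, without saying which of them received these agents, and the labels do not say whether replicate arrays were of different mice or cultures. The low-Myc arrays were labelled untreated replicate 1, untreated replicate 3 and 2 h replicate 2. The high-Myc arrays were labelled untreated replicate 2, 1 h replicates 1, 2 and 3, and 2 h replicates 1 and 3. Values for single arrays follow this order throughout, 3 low-Myc values and then 6 high-Myc values. The low-Myc group thus held 2 of 3 untreated, 0 of 3 1 h and 1 of 3 2 h arrays, so that untreated replicate 2 and 2 h replicate 2 lay on the side opposite to the other arrays of their labels. Each of these names is the deposited label of the array, and the cause of the disagreement was not tested.

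A resting B cell circulates as a small cell with little protein synthesis, and its quiescence is known to be kept by factors of the Krüppel-like and FOXO families. Binding of the antigen receptor activates kinases, calcium and MAP kinase signalling, and the immediate-early genes are transcribed first, without new protein being made. Myc, itself among the early genes, binds DNA with its partner Max at E-box sequences and is known for raising ribosome production, nucleotide and polyamine synthesis and cell size ahead of division.

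Each array held 45281 probes, of which 19088 to 19112 were above noise. Over the 14640 features kept, pairs of low-Myc arrays had 35 to 36 features at least 2-fold apart, pairs of high-Myc arrays 21 to 1272, and pairs across the divide 175 to 1679. No 2 arrays held identical values (0 pairs). The low-Myc arrays formed a tight group, and the high-Myc arrays did not. Within the high-Myc group, 1 h replicates 1 and 3 had 35 features at least 2-fold apart, 2 h replicates 1 and 3 had 21, and untreated replicate 2 had 100 with 2 h replicate 1. The array labelled 1 h replicate 2 stood apart, with 313 to 1272 features from each other high-Myc array. The array labelled 1 h replicate 1 was nearer by this count to the low-Myc arrays (175 to 185 features) than to the high-Myc arrays other than 1 h replicate 3 (516 to 1272). On the first principal component, which held 58.4% of the variance, the low-Myc arrays lay at -32.8, -32.0 and -31.9 and the high-Myc arrays at 25.5, -14.2, 38.4, -8.12, 26.8 and 28.2. The median standard deviation of a feature, as log2 of the intensity plus 50, was 0.104 within the low-Myc and 0.198 within the high-Myc arrays.

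**Figure D1:**
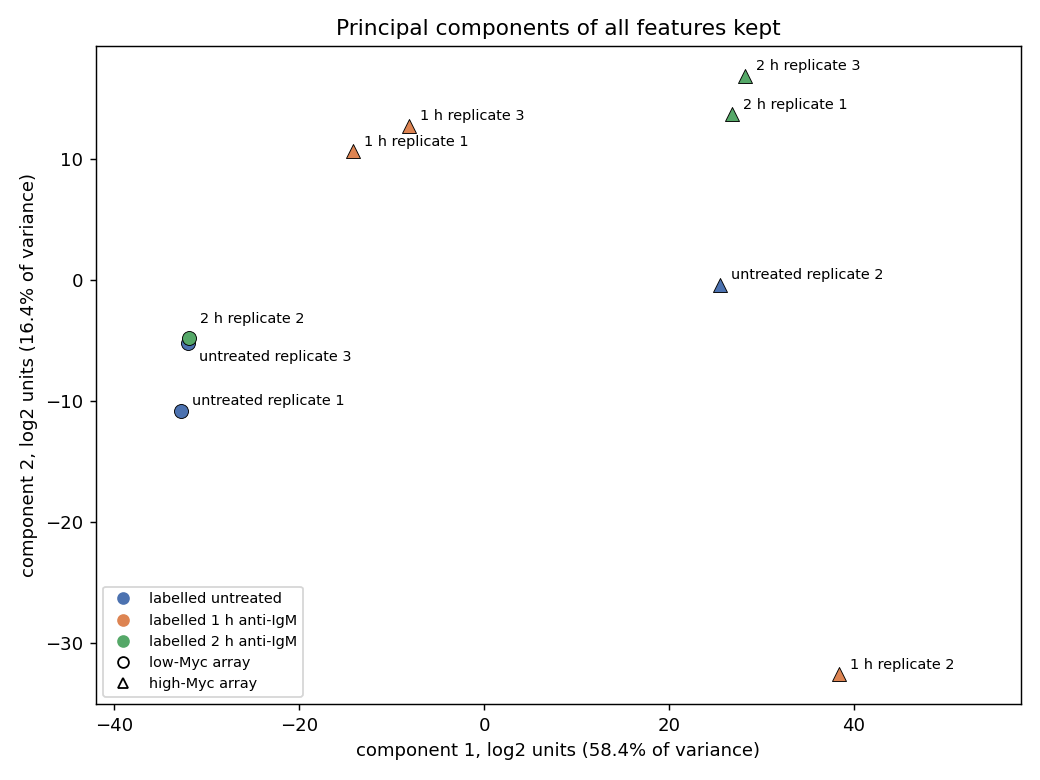
Position of each array on the first and second principal components of the 14640 features (log2 units, 58.4% and 16.4% of the variance), with colour for the deposited label and shape for the Myc group. The 3 low-Myc arrays lie together near -32 on the first component, 1 h replicates 1 and 3 lie between them and the other high-Myc arrays, and 1 h replicate 2 lies alone at -32.6 on the second.

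Myc had intensities of 57.0, 70.0 and 56.4 on the low-Myc arrays and of 798, 840.5, 583, 816, 876 and 801 on the high-Myc arrays. These values chose the groups, so the divide in Myc is not a finding, and the log2 difference of 2.90 only gives its size. A log2 difference here is the mean of log2(intensity + 50) over the 6 high-Myc arrays minus that over the 3 low-Myc arrays, which understates the change of dim genes, and a fold is the same difference unlogged. A second Myc probe was below noise on all 9 arrays and adds nothing. Myc levels differed little among 5 of the high-Myc arrays (798 to 876), and 1 h replicate 2 lay below them.

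Many genes followed the divide in Myc. A gene is called separated here when all 6 high-Myc arrays lay above all 3 low-Myc arrays, or all below. Of the 14640 features, 1151 (7.86%) were separated and higher on the high-Myc arrays and 1492 (10.2%) were separated and lower. With a difference of at least 2-fold as well, 262 (1.79%) were higher and 182 (1.24%) lower, and 222 and 162 of these had gene names. The median log2 difference over all features was -0.01. Without 1 h replicate 1, the number lower by at least 2-fold was 276 in place of 182, and without both 1 h replicates 1 and 3 the counts were 522 higher and 420 lower. Separation also became more frequent with fewer arrays. Without both, 2435 of the 14640 features were separated and higher and 2930 lower. Without any single array, 1195 to 1545 were separated and higher and 1540 to 2104 lower. List counts given without an array are to be read beside these. Since arrays were bulk samples, fewer cells of a type and less RNA of a gene per cell cannot be told apart.

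**Figure D2:**
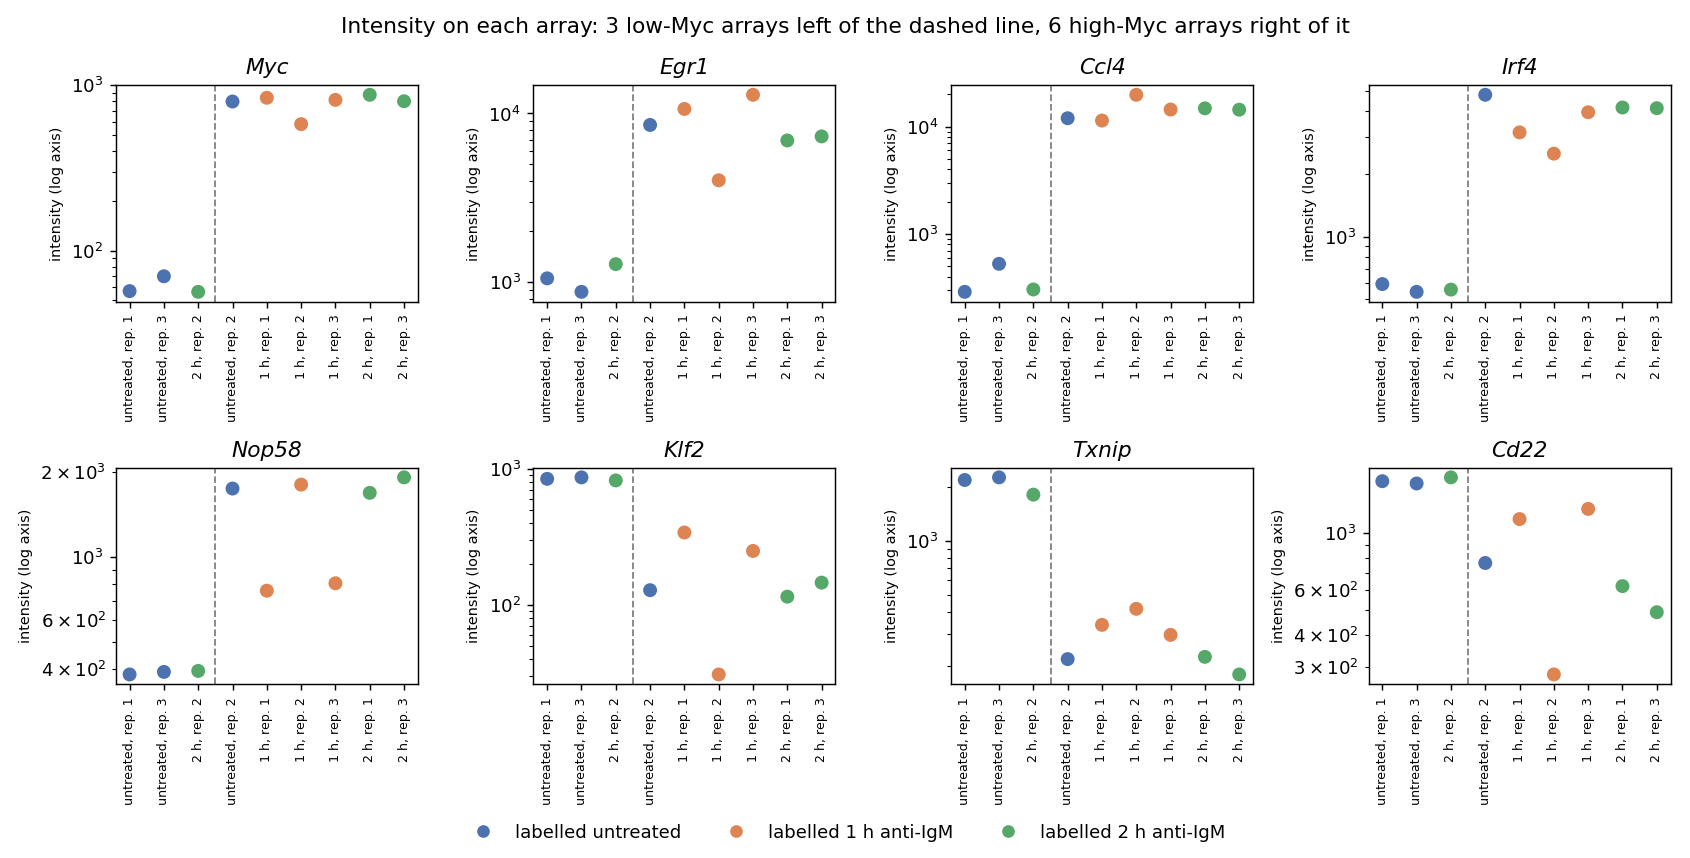
Intensity (log axis) of Myc and 7 other genes on each array, with the 3 low-Myc arrays left of the dashed line, the 6 high-Myc arrays right of it and colour for the deposited label. Egr1, Ccl4, Irf4 and Nop58 are higher and Klf2, Txnip and Cd22 lower on every high-Myc array than on any low-Myc array, and Nop58 on 1 h replicates 1 and 3 lies between the 2 levels.

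The largest differences toward the high-Myc arrays belonged to the chemokine genes Ccl4 and Ccl3, whose products attract T cells and myeloid cells. Ccl4 had intensities of 289, 526 and 303 on the low-Myc arrays and of 11981, 11402, 19817, 14441, 14819.6 and 14396 on the high-Myc arrays, a log2 difference of 5.12 or 34.9-fold, with standard deviations of 0.43 (n = 3) and 0.28 (n = 6). Ccl3 had 95.5, 193 and 126 against 2818, 2344, 6498, 2403, 4611 and 4841, a log2 difference of 4.33 (SD 0.37 and 0.61). For both, the highest of all arrays was 1 h replicate 2, and the groups were far from overlapping. A second Ccl4 probe gave a log2 difference of 5.15. Rgcc, a cell cycle regulator first known as a complement response gene, had 23.0, 41.2 and 23.1 against 1248, 220.5, 1859.9, 329.7, 1700.3 and 2039, a log2 difference of 3.65. Its values on 1 h replicates 1 and 3 were several times lower than on the other 4 high-Myc arrays, yet well above the low-Myc arrays. The lipid droplet gene Hilpda had 102, 111 and 131 against 1395, 1549, 550.2, 1342, 1529.9 and 1733, a log2 difference of 3.01. The histone demethylase gene Kdm6b (log2 difference 2.42), the semaphorin gene Sema7a (2.45), the poly(A) polymerase gene Tent5c (2.40) and the kinase gene Pim3 (2.17) were among the other leading genes, together with Lilr4b (2.22), an immunoglobulin-like receptor whose near-identical paralog may share its signal. Other probes gave smaller log2 differences, down to 0.38 for Kdm6b and 0.64 for Sema7a.

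**Figure D3:**
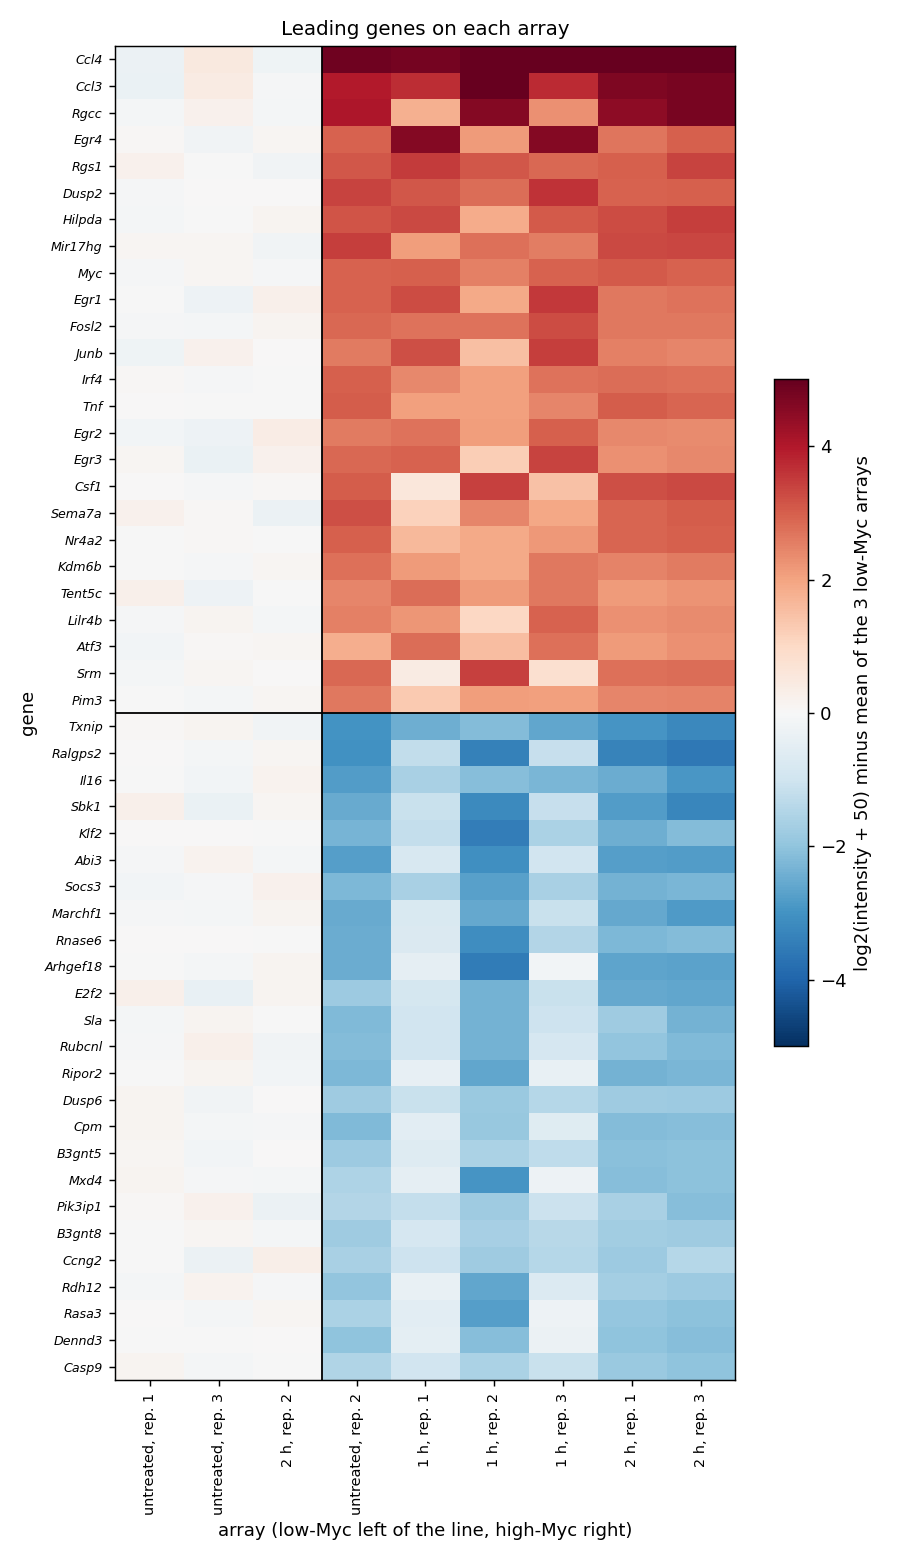
Log2(intensity + 50) minus the mean of the 3 low-Myc arrays, as colour (the scale ends at 5 in either direction), for the 25 named genes with the largest differences in each direction (rows) on each array (columns). The upper genes are higher and the lower genes lower on all 6 high-Myc arrays, and the columns of 1 h replicates 1 and 3 are paler for Rgcc, Csf1, Srm, Arhgef18 and Mxd4.

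Genes of immediate-early transcription factors stood mostly higher on the high-Myc arrays. Of 25 listed genes 20 were measured, and 14 of these were separated and higher (7.86% of all features were), 1 was separated and lower (10.2% of all features were), and 5 overlapped. No more can be read from these shares, since the same contrast chose the arrays. The median log2 difference was 1.39, or 1.33 with genes that were below noise on all low-Myc arrays set to their lower bound, against -0.01 over all features. It was 2.23 with an offset of 16 in place of 50, 1.03 with an offset of 100 and 1.05 with the mean over the probes of a gene. Of the 10 genes above noise on all 9 arrays, 7 were separated and higher and 1 lower. Of the separated genes, Egr4, Nr4a3 and Ier2 were below noise on all low-Myc arrays. Fosl2, Nr4a2, Atf3 and Maff were above noise on only 1 low-Myc array. All of these were kept only through the high-Myc arrays, where they are high. The zinc finger factor Egr1 had intensities of 1054, 876 and 1279 on the low-Myc arrays and 8548, 10635, 4017, 12904, 6918 and 7311 on the high-Myc arrays, a log2 difference of 2.84 (SD 0.26 and 0.58). Its relative Egr2 had intensities of 1097, 1023 and 1609 against 7572, 8191, 5399, 9961, 6705 and 6437, a log2 difference of 2.52. Egr3 had 1376, 1005 and 1505 against 9555, 10325, 3032, 13659.9, 6498 and 6964, also a log2 difference of 2.52, with another probe at 0.32. In all 3 genes the highest array was 1 h replicate 3 and the lowest of the high-Myc arrays was 1 h replicate 2. Egr4 was not above noise on any low-Myc array and had 359.8, 1229.9, 183, 1224, 291 and 365 on the high-Myc arrays, at least 9.38-fold higher. Its 2 highest values were those of 1 h replicates 1 and 3.

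The AP-1 genes, whose products pair as Fos-type and Jun-type subunits, did not all lie on the same side. Fosl2 had intensities of 0.69 to 8.33 on the low-Myc arrays against 339.6, 301, 301, 460.1, 281 and 285 on the high-Myc arrays (log2 difference 2.80, with another probe at 0.13). Junb had intensities of 109.7, 164 and 138 against 1062, 1698, 482, 1993, 1023 and 963 (log2 difference 2.63). Fos had intensities of 15.1, 14.7 and 14.0 against 97.3, 326, 52.2, 249.7, 117 and 144 (log2 difference 1.59), again highest on 1 h replicates 1 and 3. Jun, the partner of Fos in AP-1, was the separated gene on the lower side, with intensities of 93.6, 124 and 62.7 against 31.8, 46.6, 16.8, 41.9, 24.8 and 25.2 (log2 difference -0.81). Among the rest of the list, the orphan nuclear receptor gene Nr4a2 had intensities of 4.81 to 7.80 against 125 to 401 with a median of 289 (log2 difference 2.44). The stress-responsive factor gene Atf3 had -0.06 to 7.50 against 106 to 325 with a median of 201 (log2 difference 2.22). Srf, the gene of serum response factor, which itself drives many immediate-early genes through CArG boxes, had intensities of 465, 419 and 476 against 1231, 1149.6, 634, 1826, 915 and 1021 (log2 difference 1.16). Maff (log2 difference 0.87) and Bhlhe40 (0.76) were higher by less than Egr1, Egr2 and Egr3. Nr4a3 and Ier2 were below noise on the low-Myc arrays, Nr4a3 at least 2.43-fold higher and Ier2 at least 1.12-fold higher. Jund (log2 difference 0.19), Klf6 (-0.06, with probes that differed in sign), Ier3 (0.05) and Fosb (1.37) overlapped between the groups, as did Mafk, which was below noise on the low-Myc arrays.

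CArG boxes were sought in promoter windows of 300 bases, 250 before and 50 after the start of a gene, from RefSeq (GRCm38.p6). A window was found for 9013 of the 11104 measured named genes, and for 187 of the 222 named genes higher by at least 2-fold. At least 1 CArG box stood in the windows of 1.70% of all measured genes, of 2.14% (4 genes) of those higher and of 0.719% (1 gene) of those lower. The 4 genes were Cldn12, Egr2, Srf and Vma21, and of the 16 immediate-early genes with a window only Egr2 and Srf held a match. Both windows are shown because they are the immediate-early members with the motif, and capitals mark the CArG boxes. The Egr2 box began 72 bases before the start and the Srf boxes 82 and 62 bases before. A match describes the letters of the window and is not evidence of binding.
Egr2, chr10:67537619-67537918, plus strand: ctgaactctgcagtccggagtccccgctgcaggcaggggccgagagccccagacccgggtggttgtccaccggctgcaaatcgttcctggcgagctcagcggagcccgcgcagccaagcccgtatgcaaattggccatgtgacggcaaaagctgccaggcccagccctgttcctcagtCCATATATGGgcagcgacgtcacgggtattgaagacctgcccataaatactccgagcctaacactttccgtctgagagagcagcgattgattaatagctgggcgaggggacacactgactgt
Srf, chr17:46556113-46556412, minus strand: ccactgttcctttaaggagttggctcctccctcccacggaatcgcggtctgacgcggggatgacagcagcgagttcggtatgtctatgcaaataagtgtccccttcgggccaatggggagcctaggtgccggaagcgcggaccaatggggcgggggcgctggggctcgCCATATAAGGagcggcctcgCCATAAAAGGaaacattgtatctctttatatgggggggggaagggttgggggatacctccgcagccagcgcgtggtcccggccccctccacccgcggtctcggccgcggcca

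The network of Max-binding proteins around Myc held 1 separated member. Of 8 measured genes, 0 were separated and higher (7.86% of all features were) and 1 was separated and lower (10.2% were). The median log2 difference was 0.02. Without untreated replicate 1, 2 were separated and higher (1436 of all 14640 features were). Mxd4, which encodes a Max partner that opposes Myc at E-boxes, had intensities of 3559, 3097 and 2979.5 on the low-Myc arrays against 1076, 2348, 370.4, 2661, 688 and 740.2 on the high-Myc arrays, a log2 difference of -1.56. Its levels on 1 h replicates 1 and 3 were close to those of the low-Myc arrays, and 1 h replicate 2 had the lowest. Max itself had a log2 difference of 0.12, Mxd1 of 0.32, Mxd3 of -0.22, Mnt of 0.02, Mga of 0.25, Mlx of -0.21 and Mlxip of 0.03, all with overlap. The host transcript of the miR-17-92 cluster, Mir17hg, a known target of Myc, had intensities of 134, 133 and 104 against 1836, 688, 1101, 955, 1669 and 1689 (log2 difference 2.91, SD 0.15 and 0.54).

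Genes for ribosome biogenesis were separated in the direction of the high-Myc arrays only. Of 38 listed genes 33 were measured, and 18 were separated and higher (7.86% of all features were), each by at least 2-fold. In the lower direction 0 were separated (10.2% of all features were), and the median log2 difference was 1.19. Without 1 h replicates 1 and 3, an alternative chosen after seeing the data, 30 of the 33 were separated and higher (2435 of all 14640 features were). Nop58, a core protein of small nucleolar ribonucleoproteins, had intensities of 383, 391 and 395 on the low-Myc arrays and 1752, 760.1, 1809, 808, 1691 and 1919 on the high-Myc arrays (log2 difference 1.68). The GTPase gene Gnl3, also known as nucleostemin, had intensities of 1655, 1728 and 1585 against 7286, 3076, 6749.9, 3775, 6061 and 5532 (log2 difference 1.62). Ppan, needed for the large subunit, had 456, 461 and 433 against 2408, 699.5, 2422, 1126, 2178 and 2041 (log2 difference 1.77). In each of these genes 1 h replicates 1 and 3 lay between the low-Myc arrays and the other 4 high-Myc arrays. Rrp1b had the largest difference of the list, with intensities of 97.0, 134 and 129 against 1147, 154, 1232, 268, 838 and 864 (log2 difference 1.96), and on 1 h replicate 1 it was barely above the low-Myc arrays. Next in size after Ppan, Nop58 and Gnl3 were Rrp9 (log2 difference 1.61), Wdr43 (1.55) and Utp4 (1.53), factors of ribosomal RNA processing. The remaining separated members had log2 differences of 1.12 (Nle1) to 1.42 (Nop2), among them the helicase gene Ddx21 (1.19), Gnl2 (1.17), Gar1 (1.18) and Heatr1 (1.20). Another probe gave 0.18 for Nle1 and 0.27 for Heatr1. Overlap remained for 15 genes, among them Nop56 (log2 difference 1.30), Ncl (0.65) and Npm1, a nucleolar chaperone gene with intensities of 7538, 5818 and 6810.0 against 8183, 6834, 9851, 6613, 6830.2 and 7071 (0.16). Genes of the ribosomal proteins themselves had 0 of 24 measured members separated in either direction (2 lower without 1 h replicate 1) and a median of -0.03, with Rplp1 at intensities of 24513 to 25345 against 24830.0 to 30385 and Rps4x at 19733 to 23066 against 17945 to 23545.

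Genes of translation initiation and tRNA charging had a smaller median than those of ribosome biogenesis. Of 25 measured, 7 were separated and higher (7.86% of all features were) and 1 lower (10.2% were), and the median log2 difference was 0.43. Without 1 h replicates 1 and 3, 18 were separated and higher (2435 of all 14640 features were). Eif4a1, the helicase of the cap-binding complex, had intensities of 3677, 3245 and 3339 against 11222, 7092, 9110.0, 8479.7, 8978 and 8519 (log2 difference 1.36, SD 0.09 and 0.21), the only separated member past 2-fold. Eif1a (log2 difference 0.95), Eif3b (0.82), Eif6 (0.71), Eif2s2 (0.63), Eif5 (0.43) and Eif3d (0.41) were the other separated members. The valyl-tRNA synthetase gene Vars was separated on the lower side, with intensities of 1185, 948 and 1158 against 569.6, 723, 761, 798, 433 and 362 (log2 difference -0.85).

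E-boxes with the letters CACGTG, to which Myc and Max are known to bind, were sought in the same windows on both strands. They were present for 8.09% of all 27025 genes with a window, for 11.5% of the 9013 measured genes, for 20.3% (38 of 187) of the genes higher by at least 2-fold and for 11.5% (16 of 139) of those lower. Of the 28 ribosome biogenesis genes with a window, 6 held the motif: Nop2, Wdr43, Pes1, Utp4, Mybbp1a and Nle1. The median G and C content was 60.7% in the windows of the higher genes and 60% in those of all measured genes. Nop2, a nucleolar RNA methyltransferase gene, had intensities of 51.6, 43.6 and 51.7 on the low-Myc arrays against 332, 67.2, 354, 109, 299.7 and 293 on the high-Myc arrays (log2 difference 1.42). The windows of Nop2 and Eif4a1 are shown as a ribosome biogenesis and a translation gene with an E-box, in capitals, which began 60 bases before the start of Nop2 and 189 before that of Eif4a1.
Nop2, chr6:125131633-125131932, plus strand: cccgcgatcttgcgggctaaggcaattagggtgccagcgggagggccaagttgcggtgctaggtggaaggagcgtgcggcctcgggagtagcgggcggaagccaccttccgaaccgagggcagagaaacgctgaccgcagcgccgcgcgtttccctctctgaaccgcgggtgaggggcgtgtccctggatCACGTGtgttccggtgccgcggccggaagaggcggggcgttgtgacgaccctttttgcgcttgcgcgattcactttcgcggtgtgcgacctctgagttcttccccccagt
Eif4a1, chr11:69672374-69672673, minus strand: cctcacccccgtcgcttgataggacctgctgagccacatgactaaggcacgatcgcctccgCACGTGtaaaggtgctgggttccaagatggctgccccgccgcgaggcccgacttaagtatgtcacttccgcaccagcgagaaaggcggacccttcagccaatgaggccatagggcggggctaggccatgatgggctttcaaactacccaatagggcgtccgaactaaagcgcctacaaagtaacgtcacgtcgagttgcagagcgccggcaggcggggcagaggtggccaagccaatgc

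Windows with a cyclic AMP response element (TGACGTCA, both strands) made up 3.58% of measured genes and 6.95% (13 genes) of those higher by at least 2-fold, among them Nfkbid, Ppan and Rcan1. These shares describe letters in a short window, and nothing was tested.

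Genes of growth metabolism and protein folding had 0 separated members on the lower side (10.2% of all features were). Of 24 measured genes of polyamine, nucleotide and one-carbon synthesis, 3 were separated and higher, close to the 7.86% of all features, 0 were lower, and the median log2 difference was 0.39. Without 1 h replicates 1 and 3 the higher count was 15 (2435 of all 14640 features). It was 5 without 1 h replicate 1 or any single low-Myc array (1436 to 1545 of all features). The spermidine synthase gene Srm had intensities of 107, 129.6 and 121 on the low-Myc arrays against 1194, 177, 1741, 243, 1087 and 1123 on the high-Myc arrays (log2 difference 2.18), and 1 h replicate 1 was only just above the low-Myc arrays. The CTP synthase gene Ctps had intensities of 223, 209.6 and 218 against 1466, 248, 1389.7, 359.9, 1278 and 1119 (log2 difference 1.69), with 1 h replicates 1 and 3 again nearest to the low-Myc arrays. The serine hydroxymethyltransferase gene Shmt1 had 75.3, 70.0 and 87.9 against 252, 96.2, 564, 128, 204 and 188 (log2 difference 1.01). Of 20 nutrient transporters and glycolytic enzymes, 5 were separated and higher and 0 lower (median 0.26). The higher count was 9 without 1 h replicates 1 and 3 (2435 of all 14640 features). Of the 15 members above noise on all 9 arrays, 4 were separated and higher. The transferrin receptor gene Tfrc, which brings iron into the cell, had intensities of 408, 463 and 393 against 2475, 824, 3941, 1018, 2357 and 2184 (log2 difference 2.03). The glucose transporter gene Slc2a1 had 409, 365 and 519.6 against 1245, 827, 968, 958, 987 and 999.9 (log2 difference 1.13). Slc3a2, the heavy chain of amino acid transporters, had a log2 difference of 0.90, the lactate dehydrogenase gene Ldha of 0.88 and the phosphoglycerate mutase gene Pgam1 of 0.74. Among 22 chaperones, 5 were separated and higher and 0 lower (median 0.44), with log2 differences of 1.02 for the mitochondrial Hspa9, 0.98 for the chaperonin subunit gene Cct3, 0.64 for Stip1, 0.62 for Ahsa1 and 0.55 for the endoplasmic reticulum chaperone gene Hspa5. Another probe of Cct3 differed in sign (log2 difference -0.09). Of the chaperones, 15 were separated and higher without 1 h replicates 1 and 3 (2435 of all 14640 features were). The count was 9 without 1 h replicate 1 or without 2 h replicate 2 (1542 and 1453 of all features).

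Secreted factors of activated B cells had 6 of 12 measured members separated and higher (7.86% of all features were) and 0 lower (10.2% were). The median log2 difference was 1.26. Over all 18 listed genes, including those not above noise, the median was 0.14, and over the 10 above noise on all 9 arrays it was 2.01. With offsets of 16 and 100 it was 1.86 and 0.88. Besides Ccl3 and Ccl4, the inflammatory cytokine gene Tnf had intensities of 17.7, 15.3 and 15.0 against 485, 226, 222, 310.5, 482 and 452 (log2 difference 2.59, SD 0.03 and 0.46). The macrophage growth factor gene Csf1 had intensities of 12.0, 8.40 and 13.2 against 446, 40.1, 600.0, 120.4, 517 and 549.6 (log2 difference 2.50), with its lowest high-Myc values on 1 h replicates 1 and 3. Il10, the gene of an anti-inflammatory cytokine that B cells can make, had intensities of 9.80, 8.82 and 15.2 against 169, 144, 107, 172, 239 and 180.4 (1.81), and the chemokine gene Cxcl16 a log2 difference of 0.70. In each of the 6 genes the groups did not overlap, though the order of the high-Myc arrays varied from gene to gene. The lymphotoxin genes Lta (log2 difference 0.07) and Ltb (-0.80) and the chemokine gene Ccl5 (-0.26) overlapped.

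Surface molecules of activation and costimulation divided in both directions. Of 20 measured, 5 were separated and higher (7.86% of all features were) and 4 lower (10.2% were), and the median was -0.06. Without 1 h replicate 2 the median was 0.05. Il2ra was above noise on only 1 low-Myc array and was kept only through the high-Myc arrays. Of the 17 members above noise on all 9 arrays, 4 were separated and higher and 4 lower. The early activation marker Cd69, which retains lymphocytes in tissue, had intensities of 954, 803 and 999 against 3613, 6375, 2562, 6289, 3439 and 3296 (log2 difference 2.08, with another probe at 0.18), highest on 1 h replicates 1 and 3. The adhesion receptor gene Cd44 had intensities of 1196, 1173 and 1230.2 against 3893, 1473, 5218, 1569, 2659 and 2923 (log2 difference 1.13, with another probe at 0.05), highest on 1 h replicate 2. The interleukin 2 receptor gene Il2ra (log2 difference 0.74), Tnfrsf4 (0.59, or 0.37 without 1 h replicate 2, its highest array) and Icam1 (0.58) were the other higher members. On the lower side was Cd40, the receptor for T cell help, with intensities of 1071, 974 and 852 against 516, 729, 359, 566, 337 and 400.1 (log2 difference -0.96). The interleukin 4 receptor gene Il4ra had 82.3, 105 and 109 against 33.8, 35.6, 10.3, 35.2, 35.1 and 51.5 (log2 difference -0.85), with 1 h replicate 2 the lowest. The TACI gene Tnfrsf13b (log2 difference -0.72) and Tnfrsf18 (-0.54) were lower too. The costimulatory gene Cd86 had a log2 difference of 1.27 with overlap, and the activation marker gene Cd83 one of -0.04.

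Of 22 measured genes of the NF-kappaB pathway, which the antigen receptor activates through Bcl10 and Malt1, 12 were separated and higher and 2 lower, with a median log2 difference of 0.70. Of all features 7.86% were separated and higher and 10.2% lower, so the lower count was near its share. The lower count was 5 without 1 h replicates 1 and 3, where 2930 of all 14640 features were separated and lower. The subunit gene Rel had intensities of 110.5, 83.0 and 115 on the low-Myc arrays against 537, 569, 340.1, 581, 693 and 691 on the high-Myc arrays (log2 difference 1.99). The nuclear inhibitor gene Nfkbid had 474, 473 and 455 against 1787, 3187, 1129, 3535, 1768 and 2063 (log2 difference 2.05), highest on 1 h replicates 1 and 3. The survival genes Bcl2a1d (log2 difference 1.47) and Bcl2a1b (1.41), close paralogs whose probes may share signal, and the adaptor gene Traf1 (1.21) also passed 2-fold. Below 2-fold were Tnip2 (log2 difference 0.82), Bcl10 (0.78), Relb (0.77), the inhibitor gene Nfkbia (0.75), Nfkb2 (0.70), Nfkbib (0.69) and the deubiquitinase gene Tnfaip3 (0.66). Another probe gave 0.11 for Tnip2, 0.04 for Bcl10 and 0.26 for Nfkbia. The separated members on the lower side were Bcl3, a co-regulator of NF-kappaB, with intensities of 82.0, 75.1 and 92.7 against 41.3, 40.5, 20.3, 29.1, 24.6 and 27.3 (log2 difference -0.73), and Tnip1 (-0.54).

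Feedback inhibitors of MAP kinases lay on both sides of the divide. Of 13 measured, 4 were separated and higher (7.86% of all features were) and 2 lower (10.2% were), with a median of 0.40. Dusp14 was above noise on only 1 low-Myc array and was kept only through the high-Myc arrays. Of the 9 members above noise on all 9 arrays, 3 were separated and higher and 2 lower. The nuclear phosphatase gene Dusp2 had intensities of 436, 459 and 460.4 against 5107, 4243, 3459, 6036, 3862 and 3901 (log2 difference 3.13, SD 0.04 and 0.29). Dusp4, also nuclear, had 167, 95.2 and 112 against 633, 541, 440.1, 553, 505 and 661 (log2 difference 1.80, with another probe at 0.28). Dusp6, whose product removes phosphate from ERK in the cytoplasm, had intensities of 1327, 1075 and 1224 against 320.1, 534, 294, 414, 313 and 303 (log2 difference -1.63), the opposite direction to Dusp2. Dusp10 (log2 difference -0.88) was also lower, and Dusp14 (0.75) and Dusp1 (0.73) were higher.

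Regulators of G protein and cytokine signalling had 5 of 16 measured members separated and higher (7.86% of all features were) and 4 lower (10.2% were), with a median of 0.06. Rgs16 and Rgs2, below noise on all low-Myc arrays, were kept only through the high-Myc arrays. Of the 12 members above noise on all 9 arrays, 3 were separated and higher and 3 lower. Rgs1, which dampens chemokine receptors, had intensities of 57.0, 40.2 and 30.3 against 743, 986, 744, 629, 682 and 896 (log2 difference 3.16), a narrow range on the high-Myc arrays. Rgs16 was not above noise on the low-Myc arrays and had intensities of 189.7, 22.0, 398, 46.8, 187 and 310.4 on the high-Myc arrays, at least 3.54-fold higher. Socs3, an inhibitor of cytokine receptors that act through STAT3, had intensities of 330.0, 353 and 439 against 38.9, 87.9, 14.3, 85.9, 30.8 and 36.9 (log2 difference -2.14). Rgs10 had 1651, 1586 and 1954 against 957, 1425, 447, 1216, 1158 and 1379 (log2 difference -0.71). Rgs14 (log2 difference -0.44) and Socs1 (-0.34) were lower by less, and Socs4 (0.67, with probes that differed in sign) and Socs6 (0.37) were higher. Rgs2 was below noise on the low-Myc arrays and at least 1.16-fold higher.

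Among the genes with the highest level on the low-Myc relative to the high-Myc arrays were some known for their role in quiescent lymphocytes. Txnip, which restrains glucose uptake and binds thioredoxin, had intensities of 2180.1, 2255 and 1807 on the low-Myc arrays against 218, 339, 416, 298, 225 and 179 on the high-Myc arrays, a log2 difference of -2.73 (SD 0.17 and 0.38). Klf2, a zinc finger factor known for maintaining lymphocyte quiescence and trafficking, had intensities of 841, 862 and 818 against 129, 340.0, 31.0, 249, 115 and 146 (log2 difference -2.19, SD 0.04 and 0.78). Txnip was at a low level on every high-Myc array, whereas Klf2 on 1 h replicates 1 and 3 lay between the low-Myc arrays and the rest. Of 27 measured genes of the Krüppel-like and FOXO quiescence list, 7 were separated and lower (10.2% of all features were), 4 higher (7.86% were) and 16 overlapped, with a median of -0.08. On leaving out 1 h replicates 1 and 3, 11 were separated and lower (2930 of all 14640 features were). Without 1 h replicate 3 the median was -0.22. Over the 21 members above noise on all 9 arrays it was -0.32. The PI3 kinase inhibitor gene Pik3ip1 had intensities of 290.3, 332 and 219 against 67.2, 91.8, 45.2, 106, 56.3 and 23.9 (log2 difference -1.55). The atypical cyclin gene Ccng2 had 443, 363 and 569 against 114, 193, 94.9, 134, 93.1 and 135 (log2 difference -1.52). In these genes no high-Myc array reached the low-Myc level. The sestrin gene Sesn1 had 647, 673 and 744 against 188, 331, 242, 342, 188 and 133 (log2 difference -1.41). Bnip3l (log2 difference -0.83) and the factor gene Foxo1 itself (-0.69, or -0.46 without 1 h replicate 2) were the remaining lower members. In the other direction, Klf9 had intensities of 135, 106 and 118 against 554, 192, 455, 331, 518 and 565 (log2 difference 1.45). Slfn2, known for keeping lymphocytes quiescent, had 98.5, 122 and 109.8 against 276, 138, 422, 131, 421 and 405 (log2 difference 1.01), with 1 h replicates 1 and 3 only slightly above the low-Myc arrays. The antiproliferative gene Tob2 (log2 difference 0.74) and the interleukin 7 receptor gene Il7r (0.41) were higher too, with other probes at 0.04 and 0.10.

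The other leading genes of the low-Myc arrays have varied roles. Ralgps2, an exchange factor for Ral, had intensities of 1281, 1159.8 and 1331 against 110.3, 512, 75.7, 539, 79.2 and 60.9 (log2 difference -2.61, with another probe at -0.22). Arhgef18, a guanine nucleotide exchange factor, had 727, 675 and 806 against 90.5, 519.6, 18.9, 671, 75.7 and 72.6 (log2 difference -1.98). For Arhgef18 the gap between the groups was narrow, since 1 h replicate 3 lay just under the lowest low-Myc array. The Ras GTPase-activating gene Rasa3 and the Rab exchange factor gene Dennd3 had log2 differences of -1.51 and -1.51. Ripor2 had one of -1.71, with probes that differed in sign. Il16, the precursor gene of a cytokine that attracts CD4+ cells, had intensities of 596, 541 and 691 against 45.4, 165, 98.4, 86.1, 68.2 and 38.0 (log2 difference -2.36, with another probe at -0.28). Marchf1, a ubiquitin ligase that removes MHC class II from the surface, had intensities of 301, 290.1 and 351 against 12.5, 164, 11.3, 116, 11.1 and 1.20 (log2 difference -2.07), near noise on 4 high-Myc arrays and intermediate on 1 h replicates 1 and 3. The adaptor genes Abi3 (log2 difference -2.19) and Sla (-1.79), the kinase gene Sbk1 (-2.35), the autophagy regulator gene Rubcnl (-1.75), the ribonuclease gene Rnase6 (-2.03) and the glycosyltransferase genes B3gnt5 (-1.57) and B3gnt8 (-1.53) were also among the 25 largest, as were the carboxypeptidase gene Cpm (-1.59), the retinol dehydrogenase gene Rdh12 (-1.52) and the initiator caspase gene Casp9 (-1.51).

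**Figure D4:**
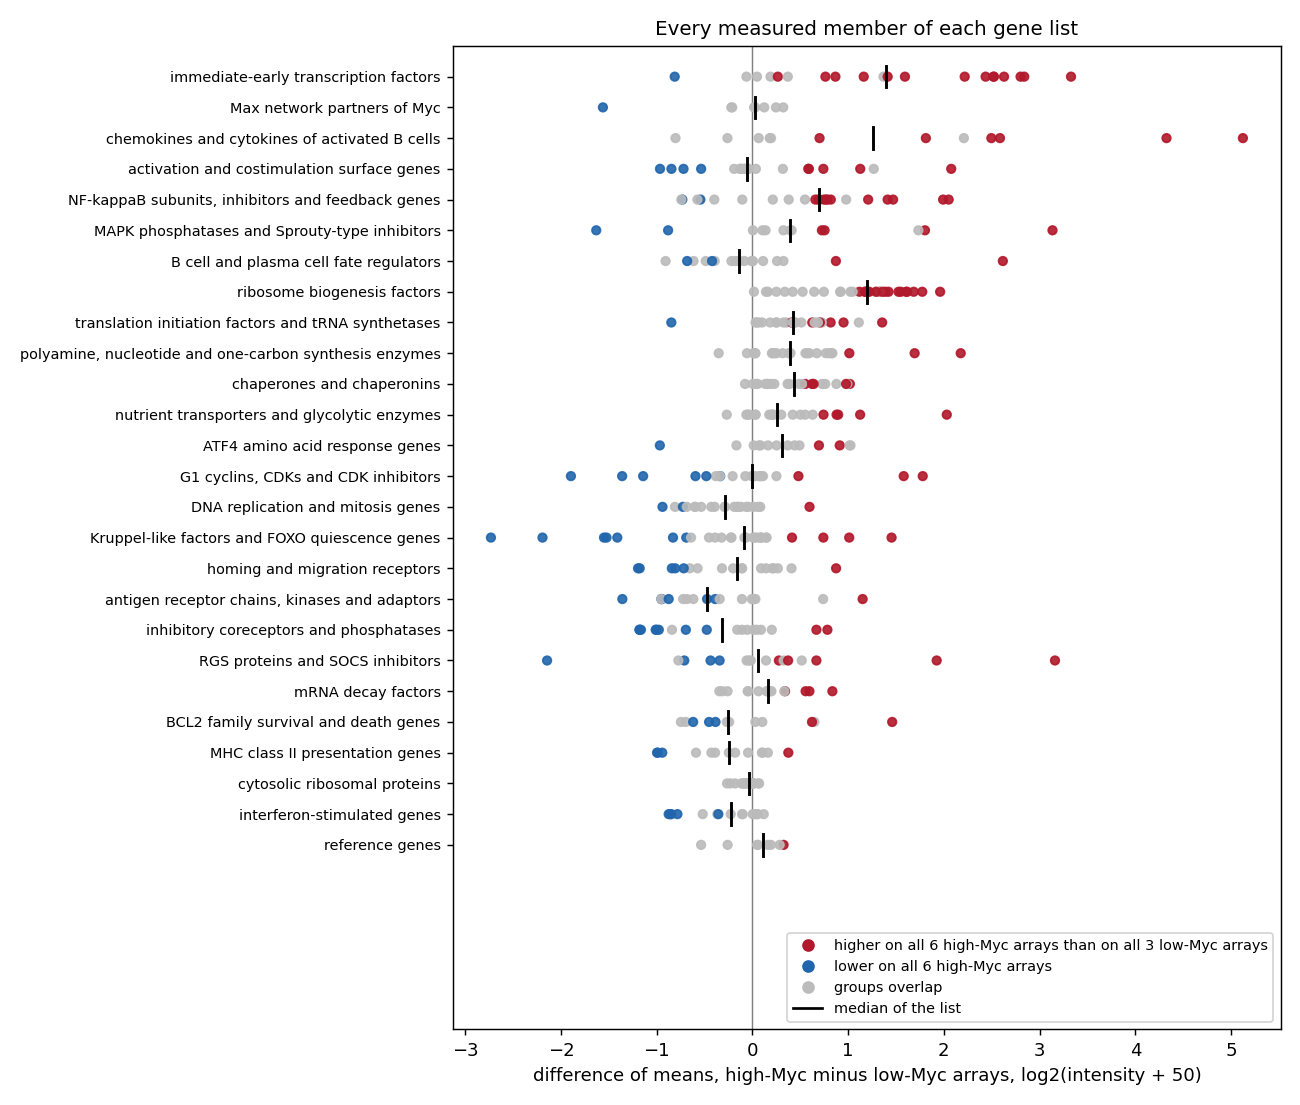
Log2 difference (high-Myc minus low-Myc arrays) of every measured member of each of 26 functional gene lists, with red for separated and higher, blue for separated and lower, grey for overlapping groups and a bar for the median. Ribosome biogenesis factors (median 1.19) lie wholly to the right of 0, cytosolic ribosomal proteins cluster at 0 (median -0.03), and the quiescence and RGS and SOCS lists spread to both sides.

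Regulators of B cell and plasma cell fate had 2 of 18 measured members separated and higher and 2 lower (median -0.14), close to the shares of all features (7.86% and 10.2%). The lower count was 4 without 1 h replicate 1 or without 2 h replicate 2 (2104 and 1951 of all 14640 features). It was 9 without 1 h replicates 1 and 3 (2930 of all features). Irf4, which drives activated B cells toward the plasma cell fate, had intensities of 591, 543 and 556 on the low-Myc arrays against 4799, 3167, 2502, 3956, 4169.6 and 4138 on the high-Myc arrays (log2 difference 2.62, SD 0.06 and 0.33), with a wide gap between the groups. Id2, an inhibitor of E proteins, was higher (log2 difference 0.87), and the lineage factor genes Ikzf1 (-0.68) and Spib (-0.42) were lower. The germinal centre factor gene Bcl6 had 1844, 1677 and 1241 against 857, 1269.7, 483, 1268, 755 and 557 (log2 difference -0.91), with overlap.

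Of 17 measured genes of the antigen receptor and its first kinases, 6 were separated and lower (10.2% of all features were) and 1 higher (7.86% were), with a median log2 difference of -0.47. Without 1 h replicates 1 and 3, 10 were separated and lower (2930 of all 14640 features were). Cd79b, a signalling chain of the receptor, had intensities of 8660.1, 9360.0 and 8159.7 on the low-Myc arrays against 3791, 7249.9, 2449.7, 6131, 4943 and 3995 on the high-Myc arrays (log2 difference -0.95), with 1 h replicates 1 and 3 the nearest to the low-Myc arrays. The kinase gene Btk had 2373, 2176 and 2214 against 1021, 1858, 796, 2086, 822 and 844 (log2 difference -0.95). The adaptor gene Dapp1 had intensities of 289.9, 284 and 289 against 52.4, 126, 51.4, 108, 82.0 and 87.5 (log2 difference -1.36). The scaffold gene Bank1 (log2 difference -0.87, or -0.51 without 1 h replicate 2), the kinase gene Syk (-0.47) and the coreceptor gene Cd81 (-0.39) were lower too, while the kinase gene Blk (0.03) and the adaptor gene Blnk (-0.68) overlapped. The PI3 kinase adaptor gene Pik3ap1, known as BCAP, was higher, with intensities of 1295, 1235 and 1572 against 3990.1, 2386, 2620.3, 3429, 3418 and 2929 (log2 difference 1.15).

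Inhibitory coreceptors and the phosphatases they recruit had 8 of 18 measured members separated and lower (10.2% of all features were) and 2 higher (7.86% were), with a median of -0.32. The median was -0.69 over the 15 members above noise on all 9 arrays. The sialic acid-binding coreceptor gene Cd22 had intensities of 1590.2, 1558 and 1646 against 764, 1133, 282, 1240.4, 621 and 492 (log2 difference -1.18). The kinase gene Csk, which holds Src-family kinases inactive, had 3033, 2828 and 2829 against 1145, 2005, 899, 2488, 879 and 829 (log2 difference -1.18). The phosphatase gene Ptpn6, known as SHP-1, had 3067, 3089 and 3013 against 1355, 2095, 1667, 2019, 1187 and 1000.1 (log2 difference -1.0). In all 3 genes 1 h replicates 1 and 3 had the highest of the high-Myc values. The adaptor gene Dok3 had a log2 difference of -1.16 and the IgG receptor gene Fcgr2b one of -1.01, with another Fcgr2b probe at 0.01. Pecam1 (log2 difference -0.98), Cblb (-0.69) and Dok1 (-0.48) were the other lower members, and the coreceptor gene Cd72 (0.78) and the phosphatase gene Ptpn22 (0.67) the higher ones. Cd72 had intensities of 1748, 1763 and 1553 against 3679, 2028, 3286, 3082, 3021 and 2806.

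Receptors of homing and migration had 5 of 18 measured members separated and lower (10.2% of all features were) and 1 higher (7.86% were), with a median of -0.16. The higher share, 5.56%, was near that of all features. The lower count was 8 without 2 h replicate 2 and also without 1 h replicates 1 and 3 (1951 and 2930 of all 14640 features). The cannabinoid receptor gene Cnr2 had intensities of 1552, 1341 and 1469 against 651, 928, 426, 879.5, 495 and 433 (log2 difference -1.19). The sphingosine phosphate receptor gene S1pr4 had 98.0, 119.7 and 103 against 17.9, 30.8, 16.6, 36.6, 12.8 and 5.99 (log2 difference -1.18). Cxcr5, whose product brings B cells into the follicle, had 1177, 1036 and 1212 against 693, 803, 345, 774, 692 and 598 (log2 difference -0.81). Ccr6 (log2 difference -0.84) and the integrin gene Itgb7 (-0.72) were lower as well, with Ccr6 at -0.49 without 1 h replicate 2. Gpr183, which guides activated B cells to the outer follicle, was higher, with intensities of 1651, 1801 and 1986 against 3403, 4228, 2057, 3999, 3776 and 3187 (log2 difference 0.87). The receptor genes Ccr7 (log2 difference 0.41) and Cxcr4 (0.27) overlapped.

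Genes of the G1 phase lay on both sides. Of 22 measured G1 cyclins, kinases and inhibitors, 3 were separated and higher (7.86% of all features were) and 6 lower (10.2% were). Cyclin D2 (Ccnd2) had intensities of 285, 279 and 421 against 2186, 488, 2135, 610.3, 1456 and 1627 (log2 difference 1.78). Cyclin D3 (Ccnd3), a relative in the same family, had 509.5, 467 and 451 against 142, 382, 149.7, 329, 118 and 123 (log2 difference -1.14), the opposite direction to Ccnd2. The CDK inhibitor gene Cdkn1a was higher, with intensities of 61.0, 29.6 and 52.5 against 291, 299, 196, 198, 168 and 319 (log2 difference 1.58, with another probe at 0.34). The inhibitor gene Cdkn2d was lower, with 109.5, 119.8 and 128 against 13.8, 42.2, 18.6, 11.8, 9.26 and 5.12 (log2 difference -1.36). E2f2, a transcription factor gene of the same list, had intensities of 795, 500.2 and 723 against 150.3, 332, 86.7, 281, 71.7 and 66.0 (log2 difference -1.90). The inhibitor gene Cdkn2c (log2 difference -0.59), Rbl1 (-0.48, with another probe at 0.14) and Cdkn1b (-0.34) were lower by less, and E2f5 (0.48) was higher. Of 21 DNA replication and mitosis genes, 1 was separated and higher and 2 lower (median -0.29), again close to the shares of all features. The lower count was 9 without 1 h replicate 1 and 6 without untreated replicate 3 (2104 and 1946 of all 14640 features). The sliding clamp gene Pcna had intensities of 42.2, 32.9 and 35.4 against 67.2, 55.7, 68.1, 45.0, 133 and 150.5 (log2 difference 0.60), and the mitotic kinase genes Plk1 (-0.94) and Aurka (-0.73) were lower.

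**Figure D5:**
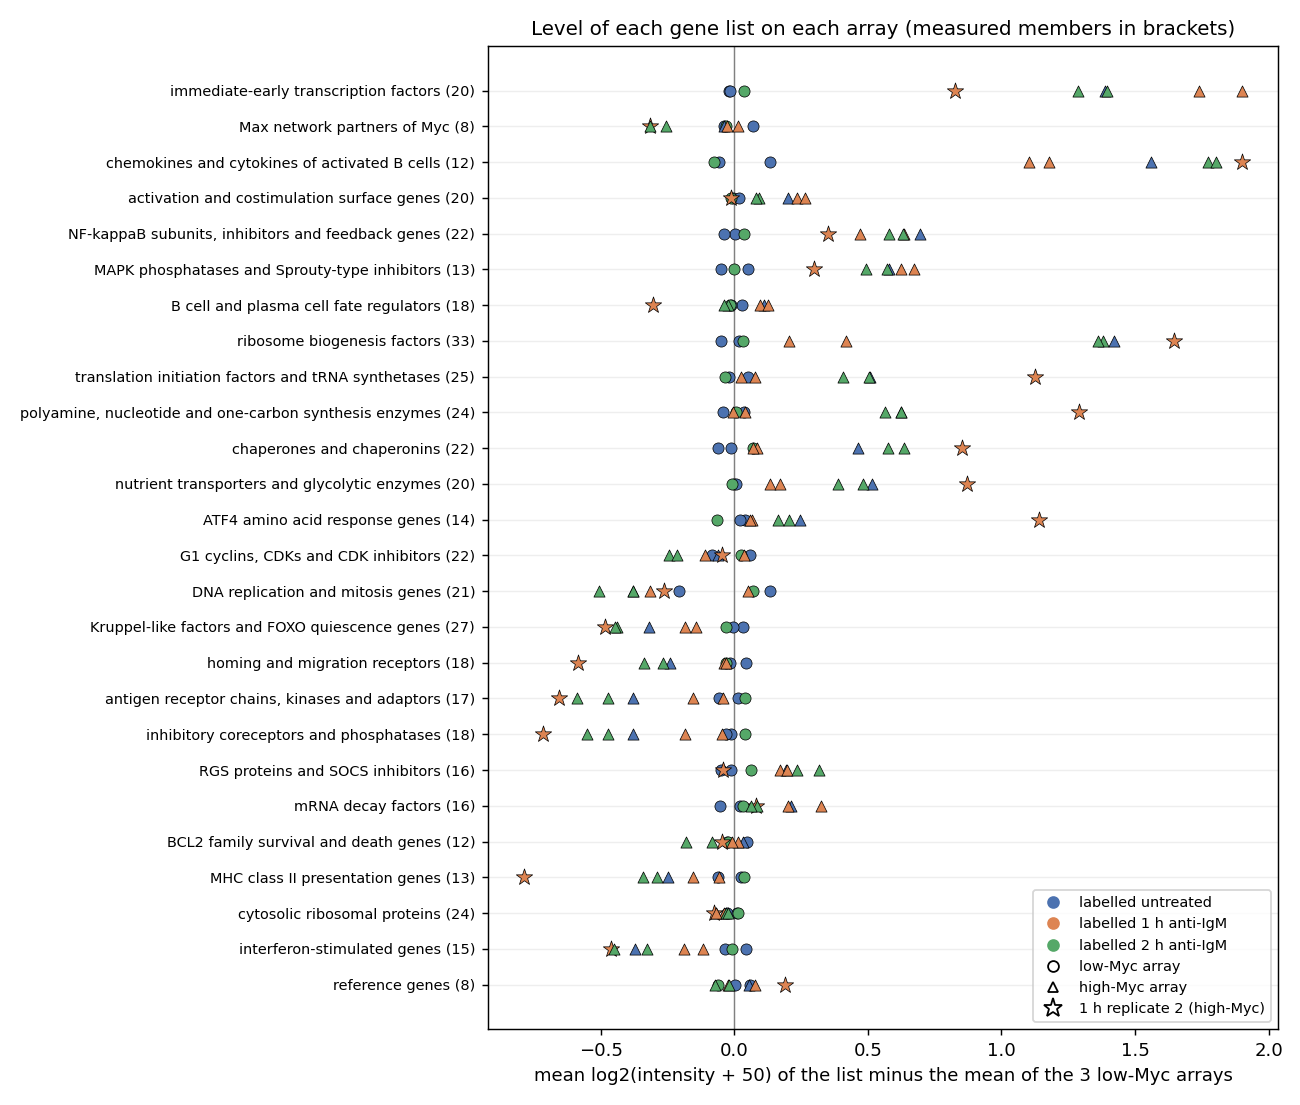
Mean log2(intensity + 50) of the measured members of each functional list on each array, minus the mean of the 3 low-Myc arrays, with colour for the deposited label, circles for low-Myc and triangles for high-Myc arrays and a star for 1 h replicate 2. Immediate-early factors are highest on 1 h replicates 1 and 3 (1.74 and 1.90) and lowest of the high-Myc arrays on 1 h replicate 2 (0.83), while ribosome biogenesis has the reverse order (0.21 and 0.42 against 1.65).

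The 6 high-Myc arrays did not hold these genes at one level. The mean log2 level of the immediate-early list, relative to the low-Myc mean, was 1.39, 1.74, 0.83, 1.90, 1.29 and 1.40 on the high-Myc arrays. That of ribosome biogenesis was 1.42, 0.21, 1.65, 0.42, 1.38 and 1.36, and that of polyamine, nucleotide and one-carbon synthesis was 0.56 to 1.29 on 4 arrays but only 0.04 and -0.0047 on 1 h replicates 1 and 3. Thus 1 h replicates 1 and 3 were highest for the immediate-early list and lowest for ribosome biogenesis, and 1 h replicate 2 was the reverse. Over all features, 1 h replicates 1 and 3 both lay above the other 4 high-Myc arrays for 2620 (17.9%) and below them for 2275 (15.5%). Among ribosome biogenesis factors they lay below the other 4 for 30 of 33, among chaperones for 16 of 22 and among polyamine, nucleotide and one-carbon genes for 17 of 24, and among immediate-early factors above for 12 of 20. Of the 262 features higher by at least 2-fold they lay below for 157 (59.9%), and of the 182 lower ones above for 159 (87.4%), that is, nearer to the low-Myc arrays. These 2 arrays were picked out by their own values, so the counts describe them and test nothing.

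The array labelled 1 h replicate 2 differed from the other high-Myc arrays in its own way. Of the 14640 features, it lay at least 2-fold above all 5 others for 67 and below all 5 for 93, while every other high-Myc array did so for 0 to 2 in each direction. Of 14 measured genes of the ATF4 amino acid response list, 3 were among those 67 and 0 among the 93. These 3, Asns, Chac1 and Trib3, were among the named genes farthest above on this array, so the count tests nothing. The genes that follow are named after their values were seen. The asparagine synthetase gene Asns had an intensity of 1359 on this array against 82.1 to 299.6 on the other 8, the glutathione-degrading enzyme gene Chac1 1786 against 85.3 to 324, and the pseudokinase gene Trib3 571 against 22.8 to 58.2. The chemokine gene Xcl1 had an intensity of 3799 against 7.48 to 475. Below the others were the phospholipase gene Pld4, with an intensity of 43.7 against 341 to 703 on the other high-Myc arrays, and the transcription factor gene Stat4, with 176 against 856 to 1116. Without this array the counts of genes separated by at least 2-fold were 254 higher and 155 lower.

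Marker genes of B cells and of other spleen cells were measured on the same arrays. The summed intensity of 10 B cell markers present on the array was 19145 to 20794 on the low-Myc and 7188 to 18023 on the high-Myc arrays, so it was lower on all high-Myc arrays and lowest on 1 h replicate 2. Of 9 measured B cell markers 3 were separated and lower (10.2% of all features were), Cd22, Cd79b and Ms4a1 (log2 difference -0.67). The other 6 overlapped: Blk (0.03), Fcer2a (-0.11), Vpreb3 (-0.68), Fcrla (-1.20) and the lineage factor genes Pax5 (-0.15) and Ebf1 (0.01, with probes that differed in sign). Pax5 was above noise on only 5 of the 9 arrays, with an intensity of at most 15.9, so its difference says little. Ms4a1, the gene of CD20, had intensities of 382, 354 and 391 against 208, 281, 109, 278, 232 and 241, lowest on 1 h replicate 2. The defining B cell marker Cd79a was not analysed here. Summed T cell markers were 816 to 1001 against 435 to 872, NK cell markers 716 to 1367 against 826 to 1499, and macrophage and monocyte markers 388 to 781 against 208 to 560.2. Most of the NK cell sum was Prf1 (688 to 1460 over the 9 arrays), and most of the T cell sum was Cd2 and Cd8b1. Cd3e, Cd3g and Cd4 had intensities of at most 11.9 on any array. These sums are therefore not levels of the cell types. Of 6 measured T cell, 4 NK cell and 12 neutrophil markers 0 were separated, and of 8 macrophage markers 1 was, Adgre1 (log2 difference -0.97). Cd8a, the NK cell markers Ncr1, Klrb1c, Gzmb and Eomes, the macrophage marker Fcgr1 and the plasma cell marker Tnfrsf17 were above noise on no array. Neutrophil markers were 1160 to 5582 against 790 to 4394 and erythroid markers 198 to 5076 against 203 to 5198, with the highest sums on untreated replicate 3, 1 h replicate 3 and 2 h replicate 1, so on both sides of the divide. Hba-a1, a hemoglobin chain gene, had intensities of 73.7, 2358 and 217 against 65.9, 141, 67.4, 2644, 2600.2 and 325. Dendritic cell markers summed to 70.4 to 102 against 85.2 to 268, where Zbtb46, not above noise on the low-Myc arrays, was at least 1.88-fold higher, and Itgax, Clec9a and Cd209a were never above noise. Another Zbtb46 probe had a log2 difference of only 0.07. Platelet markers (1.79 to 32.1 against 4.96 to 61.1) and plasma cell markers (10885 to 13020 against 6040 to 11334) had 0 separated members of 2 and 4. Nearly all of the plasma cell sum was Xbp1 and Mzb1. The plasma cell markers Sdc1, Jchain, Prdm1 and Derl3 had intensities of at most 11.1 on any array. The part of these cell types in the differences was not tested.

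The deposited labels were not used in dividing the arrays by Myc, and a comparison between them is the only one tested here. With limma and Benjamini-Hochberg adjustment, 0 of 14640 features were called at 1 h against untreated (189 at an unadjusted p under 0.05, smallest adjusted p = 1) and 0 at 2 h against untreated (729, smallest adjusted p = 0.826). These groups include untreated replicate 2 and 2 h replicate 2, so 0 calls do not show that anti-IgM changed nothing. Without 1 array at a time, limma gave 79 to 877 at 1 h and 309 to 2260 at 2 h under that unadjusted limit. The highest counts came without untreated replicate 2 at 1 h and without 2 h replicate 2 at 2 h, and 0 were called each time. For Myc the labels gave log2 differences of 1.83 at 1 h and 0.98 at 2 h, each with a standard error of 0.99 and with adjusted p-values of 1.00 and 0.908 from limma.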

How the data were processed

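RNA of mouse splenic B lymphocytes was hybridised to Illumina bead arrays, 1 array per sample and 9 in all, after Trizol and RNeasy extraction and biotin labelling of cRNA, per the labels' protocols. The authors deposited a table of linear intensities. As deposited, 31.8% of the intensities lie below 0, so a background had been subtracted, and the arrays are on a common scale, since the median intensity is 3.76 to 3.77 and the upper quartile 35.1 to 35.3 on every array. The software that made this table is named in none of the sources used here. A second deposited table, not normalized, has 9 columns whose names match no sample label, and these were not used.

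Noise was set on each array at the value that 5% of the negative intensities, mirrored about 0, exceed (median 6.44). Probes above noise on at least 3 of 9 arrays were kept (20983 of 45281), intensities were transformed as log2(intensity + 50), and the probe with the highest mean stood for each gene symbol. Symbols came from the platform annotation, updated through RefSeq: 34885 probes had 1 symbol, 18 several and 10378 none, and 34807 of those with 1 symbol matched a RefSeq gene. Of the 14640 features, 11104 were named. A feature was called when the 6 high-Myc and 3 low-Myc arrays did not overlap and their means differed by at least 1 on the log2 scale. A gene whose low-Myc values were all below noise has a lower bound for its fold, against the higher of the noise threshold and its own value on each array. Levels were not compared between probes. Differences of other probes are given for some genes only, and where none is given the probes of a gene may still differ. The number of arrays limits the precision of every value. p-values were computed only between deposited labels, with limma 3.58.1 in R 4.3.3 and Benjamini-Hochberg adjustment, and measure the spread between arrays, which may be technical. Other steps used Python 3.11.15, numpy 2.4.6 and pandas 2.3.3, and the scripts were tested on simulated data.

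The Myc limits, the gene lists (26 functional and 9 of cell type markers, 525 of 660 genes measured) and the members were chosen with earlier results of these data known. Genes named are Myc, the 25 with the largest difference in each direction that were above noise on all arrays of the brighter group, and in each list up to 6 separated members (or else the 2 of highest mean) with up to 2 that went against the rest. All others were named after their values were seen: Asns, Bcl6, Ccr7, Chac1, Cxcr4, Ebf1, Fos, Foxo1, Ier2, Nle1, Nop2, Npm1, Pld4, Slc6a9, Srf, Stat4, Trib3 and Xcl1, and the list members given by a log2 difference alone. Alternatives were other offsets, filters, probe rules, scalings and arrays.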

Additional observations from a re-analysis of the deposited data

Results flagged for a closer look

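Among the 6 high-Myc arrays, a gene or list was examined further when its highest or lowest array lay apart from the other 5 by more than Dixon's critical value at the 95% level, which chance alone gives in about 1 of 20 groups. This held for 21 of the 285 genes and list levels described. Most of them concerned 1 array, 1 h replicate 2. Trib3, Slc6a9, Pld4 and Stat4 were named after they were seen to lie far from the others on that array. Their flags were thus fixed in advance, and the count is not to be set against 1 of 20.

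At 1 h, replicate 2 was the lowest of the 6 arrays for Myc itself (intensity 583) and for the B cell genes Ms4a1 (109), Bank1 (6.93), Ebf1 (112), Cxcr5 (345) and Foxo1 (124). It was also the lowest for Il4ra (10.3), the NF-kappaB subunit gene Rel (340), Rgs10 (447), Pld4 (43.7), Stat4 (176), Hilpda (550), the lymphocyte adhesion gene Cd2 (49.0) and Jund (65.2). It was the highest for Trib3 (571), the glycine transporter gene Slc6a9 (239) and the costimulatory receptor gene Tnfrsf4 (405), and for the mean log2 level of the ATF4 amino acid response list relative to the low-Myc arrays (1.14). These genes include the one that divided the arrays, and the summed B cell markers were lowest on the same array (7188). The part of cell composition in these values was not tested.

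On other arrays, Ier2 was highest on 1 h replicate 3 (27.6), the ribosomal protein gene Rplp1 on 2 h replicate 1 (30385) and Mxd3 on 1 h replicate 1 (20.4).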

How the results depend on the processing

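The counts of genes separated by at least 2-fold, 262 higher and 182 lower, rest on the offset added before taking logs and on 1 h replicates 1 and 3. With an offset of 16 they were 399 and 368, and with an offset of 100 they were 187 and 111. Leaving out 1 array at a time gave 241 to 358 higher and 155 to 276 lower, with both upper ends without 1 h replicate 1 and 155 without 1 h replicate 2. Leaving out both 1 h replicates 1 and 3, a choice made after seeing the data, gave 522 and 420, of which 254 and 181 were among the 262 and 182. The cause was not tested. Counts stayed within 1.5 times with probes above noise on all 9 arrays (241 and 171), with no filter (262 and 182), with quantile scaling (262 and 182), with the mean over probes (219 and 134) and with medians in place of means (300.0 and 228). Over the 248 genes examined, 3822 values moved by less than the spread between arrays and 110 by more, most of them with another offset (52 with 16 and 29 with 100). Of the 196 separated genes among them 1 changed sign, Actb (-0.14 with the mean over probes), as did 19 of the 52 that overlapped. Over 1.5 times, the difference moved for 32 separated genes with the mean over probes (among them Ralgps2 at -1.18, Il16 at -1.32 and Cd69 at 1.13), for 26 with an offset of 16, for 19 with an offset of 100, for 6 without 1 h replicate 2, for 4 with medians and for 1 without untreated replicate 3. List medians moved in 22 of 559 values. With the replicate number as a block, limma called 0 features at 1 h and 0 at 2 h against untreated (126 and 555 at an unadjusted p under 0.05), as it did without the block and without each array in turn (0 in each). Deviations of arrays with the same number correlated at -0.787 to 0.572, so the numbers were not taken as pairs. Levels near noise, and the lower bounds above, are limited by signal over background.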

Other observations

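Genes of interferon responses, of antigen presentation and of cell death held a few more separated members. Of 15 measured interferon-stimulated genes, 0 were separated and higher (7.86% of all features were) and 5 lower (10.2% were) on the high-Myc arrays. The median log2 difference was -0.23 (-0.07 with no filter on dim probes, -0.48 with an offset of 16 and -0.60 over the 4 above noise on all 9 arrays). The signalling factor gene Stat2 had intensities of 90.9, 90.3 and 88.6 on the low-Myc arrays against 32.7, 46.3, 30.0, 45.6, 11.9 and 2.60 on the high-Myc arrays (log2 difference -0.87). Its partner gene Irf9 had 568, 544 and 515 against 247, 449, 192, 397, 269 and 188 (log2 difference -0.86), and the viral RNA sensor gene Ddx58 a log2 difference of -0.85. Ifit2 (-0.78) and Usp18 (-0.36, or -0.22 without untreated replicate 3) were the other lower members, while Isg15 (0.12) and Irf7 (0.03) overlapped, all values being log2 differences. Of 13 genes of MHC class II presentation, 1 was separated and higher, near the 7.86% of all features, and 3 lower (10.2% of all features were). Without 2 h replicate 2, or without 1 h replicates 1 and 3, 5 were lower (1951 and 2930 of all 14640 features were). Without 2 h replicate 3, 3 were higher (1219 of all features were). The transactivator gene Ciita had intensities of 1949.8, 1963 and 2137 against 1213, 1031, 819.8, 1302, 881 and 803 (log2 difference -0.99), and the thiol reductase gene Ifi30 had 2609, 2999 and 2293 against 1197, 2207, 502, 1667, 1356 and 1479.9. The class II chain gene H2-Eb1 was higher by a log2 difference of 0.38, and Cd74, the invariant chain, had one of 0.11 with overlap and probes that differed in sign.

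Of 12 measured genes of the BCL2 family, 2 were separated and higher (7.86% of all features were) and 3 lower (10.2% were). The lower count was 6 without 1 h replicate 3 and 5 without untreated replicate 3 (1829 and 1946 of all 14640 features). Bcl2l11, which encodes the death-promoting protein BIM, had intensities of 307, 291 and 289 against 1029, 888, 1003, 1053, 681 and 809.9 (log2 difference 1.46), and the related Pmaip1 was higher by 0.62 on the log2 scale. The survival gene Mcl1 had 3267, 2909.6 and 3143 against 2618, 2445, 1602, 2793, 2142 and 2138 (log2 difference -0.45), and Bad (-0.62) and Bmf (-0.38) were lower as well. Of 16 mRNA decay factors, 4 were separated and higher (2 with the mean over probes) and 0 lower (median 0.16), led by Zfp36, whose product binds AU-rich elements of cytokine mRNAs, with intensities of 942, 1036 and 927 against 1397, 3069, 1136, 3371, 1438 and 1264 (log2 difference 0.84, or 0.41 without 1 h replicates 1 and 3). Of 14 genes of the ATF4 amino acid response, 2 were separated and higher, Ddit3 (0.91) and Atf4 (0.70), and 1 lower, Ddit4 (-0.97), as log2 differences. Of 8 reference genes, 1 was separated, Actb, with a log2 difference of 0.33 and another probe at -0.87. This was 0 with quantile scaling or the mean over probes, 2 without untreated replicate 3 or 1 h replicate 3, and 3 without untreated replicate 1.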
